A study of Mus musculus with 16 samples.

Results

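The MHC class II genes are described here in macrophages grown from mouse stem cells, after lipopolysaccharide (LPS), after heme-albumin and untreated. The members are 7 genes, taken by name: H2-Aa, H2-Ab1, H2-Eb1, H2-DMa, H2-DMb1, Cd74 and Ciita. All probes whose accession maps to one of them were used, which gave 8 of the 39429 probes on the array, with 2 for H2-Ab1 and 1 for each other gene. Of the 7 genes, 6 passed the filter on dim probes and were tested among 12759 genes, and Ciita did not pass. The passing probes were well above background on all 16 arrays in both colours, in the treated groups and in the control alike.

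RNA was measured on 16 two-colour Agilent arrays, 4 in each of 4 groups, and the series describes the replicates as independent biological ones. The groups were LPS at 10 ng/mL for 8 h, heme-albumin at 200 µM for 8 h, heme-albumin at 50 µM for 8 h, and untreated cells at 0 h. LPS is a cell wall component of Gram-negative bacteria that macrophages sense through Toll-like receptor 4, and heme, the iron-holding group of hemoglobin, was given bound to albumin; the series asks whether heme triggers inflammation. On every array the group's own RNA was labelled red (Cy5) and untreated RNA green (Cy3), so the control arrays carried untreated RNA in both colours. Incubation time differed between treated and control cells, and no group with albumin alone was analysed here, so neither can be told apart from the treatment. The labels used here give no strain, sex or kind of stem cell. Each slide carried the 4 arrays of 1 replicate letter, replicates c and d were scanned on a later day than a and b, and each group had its own position on the slide, which cannot be told apart from the group.

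Class II molecules are pairs of an alpha and a beta chain that carry peptides from the endosome to the cell surface, where CD4+ T cells read them. H2-Aa and H2-Ab1 encode the alpha and beta chain of the mouse I-A molecule and H2-Eb1 the beta chain of I-E. Cd74 is the invariant chain that fills the groove and guides new molecules to the endosome, and H2-DMa and H2-DMb1 encode the DM molecule that helps exchange the invariant chain fragment for peptide. Ciita is the coactivator on which transcription of these genes depends: it does not bind DNA itself but is recruited by factors sitting on a conserved promoter module, whose X and Y boxes bind the RFX complex, CREB and NF-Y.

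That module can be read in 3 of the 4 member genes that had a promoter window here. H2-Ab1, Cd74 and Ciita had no window and were not searched. Those 3 promoters are shown, and they share the same letters. After LPS their genes ran from a rise (H2-Aa) over a small one (H2-Eb1) to a slight decrease (H2-DMb1). For H2-Eb1 and H2-DMb1, whether the adjusted p was under 0.05 depended on the setting, as given below. The windows are from RefSeq (build GRCm38.p6) and run 5′ to 3′ on the gene's strand, from 120 to 11 bases before the annotated start. Capitals mark matches on the gene's own strand to CTNGNAACT (X-box type, first run), ATTGG (Y box, the inverted CCAAT of NF-Y, last run) and, in H2-Aa alone, TGACGTCA (the palindrome of CREB sites, between them). Positions are chr17:34287834-34287943 on the minus strand for H2-Aa, chr17:34305747-34305856 on the plus strand for H2-Eb1 and chr17:34153071-34153180 on the plus strand for H2-DMb1.
H2-Aa: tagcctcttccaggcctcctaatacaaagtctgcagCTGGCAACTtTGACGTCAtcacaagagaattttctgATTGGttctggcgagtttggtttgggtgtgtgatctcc
H2-Eb1: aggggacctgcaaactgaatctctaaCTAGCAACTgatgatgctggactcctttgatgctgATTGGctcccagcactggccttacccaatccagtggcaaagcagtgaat
H2-DMb1: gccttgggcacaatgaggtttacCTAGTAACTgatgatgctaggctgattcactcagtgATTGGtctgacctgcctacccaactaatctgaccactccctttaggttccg
H2-Eb1 also holds ATTGG on the opposite strand at −35 to −31, left in lower case. The X-type letters and the Y box in capitals were 27 bases apart in H2-Aa, 26 in H2-Eb1 and 27 in H2-DMb1. The letters of the X-type motif were chosen after reading these sequences, so their presence here is a description. The motifs do not overlap each other in the windows shown. Searched on both strands of all 32851 promoter windows of RefSeq, of 250 bases before to 50 after a start, CTNGNAACT occurred in 4.1%, ATTGG in 37.4% and TGACGTCA in 1.79%. CTNGNAACT followed by ATTGG on the same strand with at most 40 bases between them occurred in 0.131%, or 43 windows. The 2 windows of H2-DMa did not hold that pair of motifs.

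Of the 6 members tested, H2-Ab1 was the only one that rose by at least 2-fold after LPS. Cd74 and H2-Aa rose by less than that, H2-Eb1 and H2-DMa rose by 1.21-fold and 1.2-fold on average, and H2-DMb1 fell slightly. Changes are differences in mean log2 ratio of red over green with the standard error of a limma fit across all 12759 genes, and p-values are adjusted over all of them by the Benjamini-Hochberg method. Called means here an adjusted p below 0.05 together with a difference of 2-fold or more. LPS against control called 1 of the 6 tested members, higher, beside a background of 14% of all genes called higher and 30.7% called in either direction. By the adjusted p alone 5 members were higher and 1 lower, where 34.5% and 44.3% of all genes were. The median change of the 6 genes was 0.48, and that of all genes −0.089.

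H2-Ab1 had log2 ratios of 1.88, 1.9, 1.05 and 1.1 on LPS arrays a to d, against 0.2, 0.16, 0.23 and 0.17 on control arrays. All LPS arrays lay above all control arrays, and within LPS, replicates a and b lay above c and d. The group means were 1.48 ± 0.473 after LPS and 0.19 ± 0.0341 in control (SD, n = 4 each). Control arrays set untreated against untreated RNA, so the control SD is that of this ratio and not of the level in control cells. The change was 1.3 ± 0.166, or 2.46-fold (limma adjusted p = 4.2e-06). The second H2-Ab1 probe gave 1.95, 1.95, 1.05 and 1.05 after LPS, against 0.15, 0.07, 0.13 and 0.11 in control. Both probes therefore showed the same split of replicates.

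Cd74 had log2 ratios of 1.01, 1.02, 0.64 and 0.75 on LPS arrays, against 0.05, −0.13, −0.04 and 0.06 on control arrays. The groups did not overlap, and the change was 0.87 ± 0.0969, or 1.83-fold (limma adjusted p = 9.1e-07). H2-Aa had 0.79, 0.83, 0.52 and 0.38 after LPS, against −0.01, −0.08, −0.04 and −0.09 in control. This alpha chain, the partner of H2-Ab1, also stood clear of the control on every array, by 0.68 ± 0.094 or 1.61-fold (limma adjusted p = 8.8e-06).

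The beta chain of I-E behaved differently from array to array. H2-Eb1 had log2 ratios of 0.5, 0.58, 0.21 and 0.04 after LPS, against 0.02, 0.12, 0.07 and 0.01 in control. LPS replicate d lay inside the control range, and the mean change was 0.28 ± 0.0952, or 1.21-fold (limma adjusted p = 0.016). In the DM molecule the chains went opposite ways. H2-DMa had 0.54, 0.51, 0.18 and 0.21 after LPS, against 0.11, −0.03, 0.2 and 0.1 in control, a change of 0.26 ± 0.0912 (limma adjusted p = 0.017) with LPS replicate c below the highest control. H2-DMb1 had −0.08, −0.05, −0.21 and −0.19 after LPS, against 0.02, 0.07, 0.03 and −0.01 in control, and fell by 0.16 on the log2 scale (SE 0.0448, limma adjusted p = 0.0045). That decrease was −0.09 (adjusted p = 0.053) with each array centred on its median and −0.05 (adjusted p = 0.27) without background subtraction, so whether it passed 0.05 depended on the scaling. H2-Eb1 and H2-DMa each kept an adjusted p under 0.05 in 18 of 24 alternative settings. Without LPS replicate a it was 0.053 for H2-Eb1 and 0.059 for H2-DMa, without LPS replicate b 0.056 and 0.055, and for H2-DMa 0.055 without control replicate b. Over the 6 members, 3 had all LPS arrays above all control arrays and 1 had them all below, beside 30.7% and 41.4% of all genes.

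**Figure D1:**
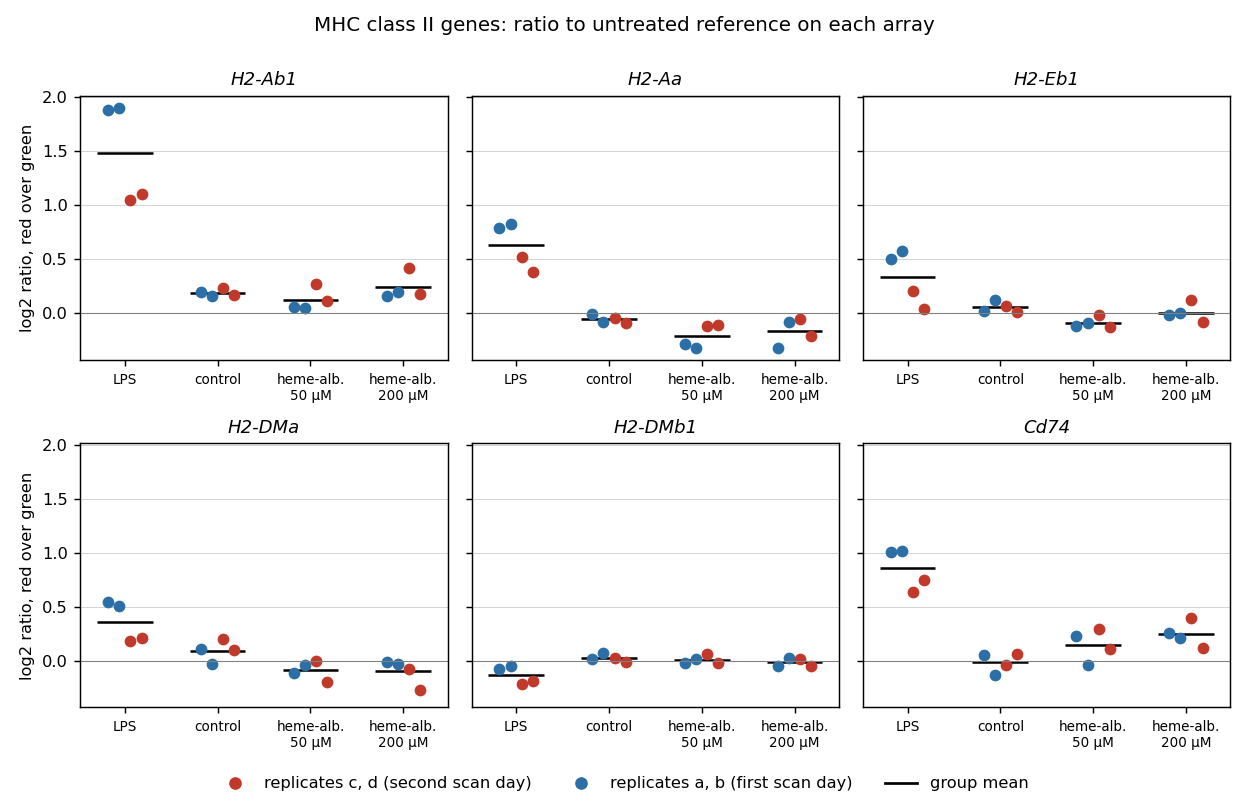
Log2 ratio of red (sample) over green (untreated reference) for 6 MHC class II genes on each of the 16 arrays, 1 point per array, with LPS, control, heme-albumin 50 µM and heme-albumin 200 µM from left to right, black lines for group means and colours for scan day. H2-Ab1 after LPS lies between 1.05 and 1.9, above every other array, with replicates a and b above c and d.

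Ciita itself could not be measured here at the level of these cells. Its probe was well above background in red on 1 of 16 arrays, LPS replicate b, and in green on 8 of 16. The red processed signal ran from 18.7 to 30.4 on LPS arrays (median 21.2) and from 2.23 to 5.32 on control arrays (median 3.62). It ran from 2.54 to 6.17 at 200 µM heme-albumin and from 2.87 to 15.6 at 50 µM. These signals are not compared as a fold, since they are at background and since the processed signals of the LPS arrays are on a larger scale: their 75th percentile was 1367 to 1773 in red and 1370 to 1769 in green, against 589 to 863 and 592 to 859 on the other 12 arrays.

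With heme-albumin, none of the 6 tested members was called at either dose. At 200 µM against control 0 of 6 were called, beside 3.03% of all genes, and 0 of 6 had an adjusted p under 0.05, beside 22.8% of all genes; 1 had an unadjusted p under 0.05. At 50 µM against control 0 of 6 were called, beside 0.368% of all genes, and 0 had an adjusted or unadjusted p under 0.05, where 3.52% of all genes had an adjusted one. An ordinary linear model with each gene's own spread over all 4 groups also called 0 at both doses. The 95% intervals of the 6 log2 changes lay between −0.39 and 0.47 at 200 µM and between −0.42 and 0.37 at 50 µM, which corresponds to at most 1.39-fold up and 1.34-fold down. The comparisons with control share the 4 control arrays.

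Cd74 came closest. At 200 µM its log2 ratios were 0.26, 0.21, 0.4 and 0.12, against 0.05, −0.13, −0.04 and 0.06 in control, all 4 above the control range, which held for 15.9% of all genes. The change was 0.26 ± 0.0969, or 1.2-fold (limma adjusted p = 0.067). That standard error is pooled over all 4 groups. With only the 2 groups compared the limma adjusted p was 0.021, and it was under 0.05 in 3 of 24 alternatives. At 50 µM Cd74 had 0.23, −0.04, 0.29 and 0.11, which overlapped the control, a change of 0.16 ± 0.0969 (limma adjusted p = 0.51). H2-Ab1, the member that rose most with LPS, had 0.16, 0.2, 0.42 and 0.18 at 200 µM and a change of 0.05 ± 0.166 (interval −0.3 to 0.41). At 50 µM it had 0.06, 0.05, 0.27 and 0.11 and a change of −0.07 ± 0.166. Its standard error is pooled over groups with SDs of 0.473 after LPS, 0.101 at 50 µM, 0.122 at 200 µM and 0.0341 in control. Both doses overlapped the control for this gene.

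The remaining members had means below the control with no adjusted p under 0.05. H2-DMa was at −0.19 ± 0.0912 for 200 µM (interval −0.39 to 0) and −0.18 ± 0.0912 for 50 µM. H2-Aa was at −0.11 ± 0.094 and −0.15 ± 0.094, and H2-Eb1 at −0.05 ± 0.0952 and −0.14 ± 0.0952, in the same order of doses. At 50 µM the arrays of H2-Aa and H2-Eb1 lay all below the control arrays, which held for 10.3% of all genes. H2-DMb1 differed from control by −0.04 and −0.02.

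Between the doses 0 of 6 members were called at 200 µM against 50 µM, beside 0.831% of all genes, and 0 had an unadjusted p under 0.05. The 6 differences ran from −0.02 to 0.12, with intervals between −0.24 and 0.47. Against LPS, 1 member was called lower at 200 µM (13.6% of all genes were) and 1 at 50 µM (13.9% of all genes were), H2-Ab1 both times, with −1.25 ± 0.166 (adjusted p = 6.4e-06) and −1.36 ± 0.166 (adjusted p = 2.5e-06). Cd74 was also lower than after LPS, with differences of −0.61 ± 0.0969 at 200 µM and −0.71 ± 0.0969 at 50 µM, and H2-Aa with −0.79 ± 0.094 and −0.84 ± 0.094, each with an adjusted p of at most 3.9e-05. These comparisons share the LPS arrays.

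**Figure D2:**
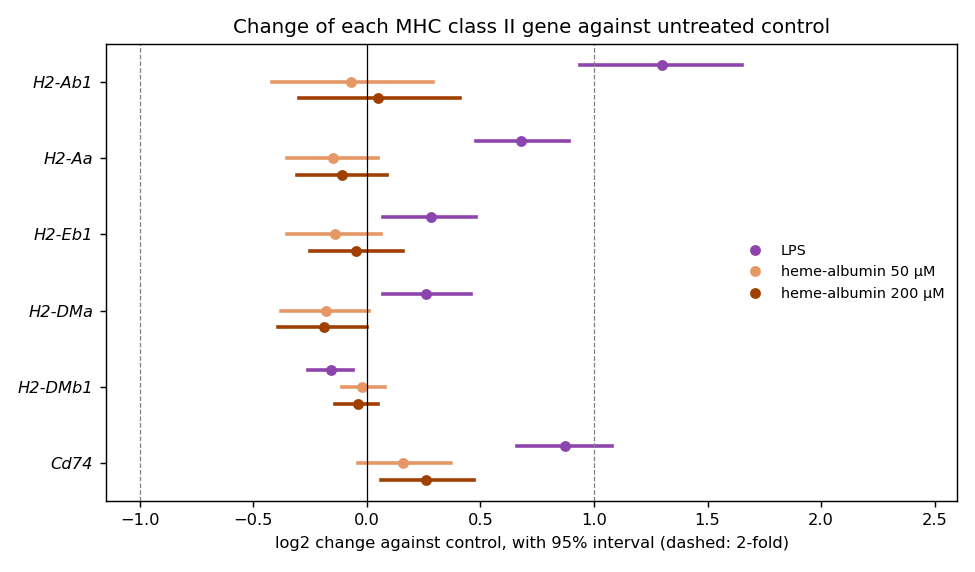
Log2 change of each of 6 MHC class II genes against control, with its 95% interval from the limma fit (4 arrays a group), for LPS, heme-albumin 50 µM and heme-albumin 200 µM from top to bottom within each gene; dashed lines mark 2-fold. H2-Ab1 after LPS (1.3) is the one point past 2-fold, and all heme-albumin intervals lie between −0.42 and 0.47.

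The class II chains also differed between replicates of the same group, with c and d on one side and a and b on the other. The red level, given below as the log2 red signal minus the array's 75th percentile, makes arrays of unequal scale comparable within 1 probe; levels of different probes are not set against each other. In control cells H2-Eb1 had red levels of 3.35 and 2.9 in replicates c and d, against 1.12 and 1.39 in a and b. H2-Aa had −1.12 and −1.61 in c and d, against −2.89 and −2.93 in a and b, and H2-Ab1 had 2.49 and 2.15, against 1 and 0.97. The levels in c and d thus stood above those in a and b for all 3 chains.

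The test of this difference across all genes was added after the values were seen. Untreated H2-Eb1 was higher by 1.87 ± 0.249 on the second day than on the first, or 3.65-fold (limma adjusted p = 0.0011). H2-Aa was higher by 1.55 ± 0.308, or 2.93-fold (adjusted p = 0.0078), and H2-Ab1 by 1.33 ± 0.234, or 2.52-fold (adjusted p = 0.0044). These 3 of the 6 members passed the 2-fold threshold upward, beside 0.839% of all genes. Cd74 was higher by 0.87 ± 0.21, or 1.83-fold (adjusted p = 0.017), whereas H2-DMa (0.21 ± 0.144, adjusted p = 0.33) and H2-DMb1 (−0.13 ± 0.0852, adjusted p = 0.32) did not pass. Among the remaining class II chain genes, H2-Oa, the alpha chain of the DM inhibitor DO, was higher by 0.97 (adjusted p = 0.00014) and H2-Ob, its beta chain, differed by 0.06. Each test rests on 2 arrays a day.

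The green channel, which held untreated RNA on every array, showed the same split. Whether arrays of 1 letter held the same untreated RNA was not established here, so these arrays are not counted as separate replicates. The green level of H2-Eb1 lay between 2.88 and 3.39 on the 8 arrays of c and d, against 1.1 to 1.31 on the 8 arrays of a and b. For H2-Aa the ranges were −1.54 to −0.81, against −2.98 to −2.86, and for Cd74 1.93 to 2.48, against 1.23 to 1.5. Neither gene's ranges overlapped. The green levels of H2-DMa (−1.04 to −0.82, against −1.16 to −0.81) did overlap. Replicate letter, slide, scan day and the tag in the sample titles go together here, so a difference between cultures and one between slides or days cannot be told apart.

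Marker genes of other cells also differed between the days. The summed red level of 8 dendritic cell markers, as a multiple of the array's 75th percentile, averaged 7.76 (4.25 to 14.9) on the second day and 18.2 (16.3 to 20.3) on the first. Siglech, a plasmacytoid dendritic cell lectin, made up 13.8 to 80.3% of that sum on the second day and 85.8 to 94.3% on the first, and was lower in untreated cells of the second day (difference −2.05, adjusted p = 0.011). The other tested markers of the list were at 0.48 (Itgax), 0.69 (Ccr7) and 0.09 (Zbtb46) there, with adjusted p-values of 0.25, 0.27 and 0.87. The summed level of 8 T and NK cell markers averaged 0.534 on the second day and 1.13 on the first, with Cd4 lower there too (difference −1.41, adjusted p = 0.00059). The 6 B cell markers averaged 0.76 on the second day and 0.803 on the first, while in untreated cells Cd22 was lower on the second day (difference −1.21, adjusted p = 0.0044) and Cd79b was at 0.33 (adjusted p = 0.6). The 6 macrophage markers measured on all arrays averaged 100 (78.2 to 145) on the second day and 132 (108 to 202) on the first. In untreated cells Adgre1, Itgam and Lyz2 were lower on the second day, with differences of −0.51, −0.52 and −0.56 (adjusted p = 0.019, 0.02 and 0.019). Their part in the class II difference was not tested. In bulk RNA, fewer cells of a type and less RNA per cell cannot be told apart.

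**Figure D3:**
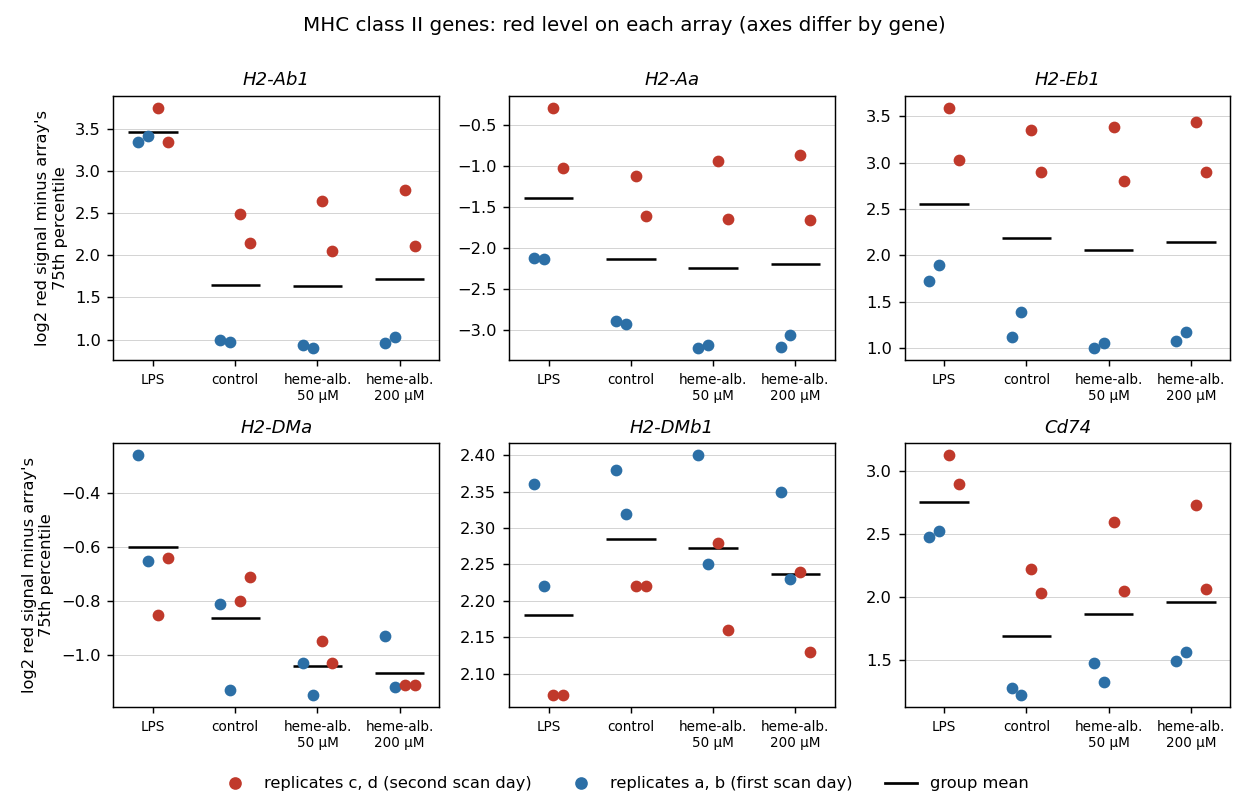
Red level (log2 red signal minus the array's 75th percentile) of 6 MHC class II genes on each array, with LPS, control, heme-albumin 50 µM and heme-albumin 200 µM from left to right, black lines for group means and colours for scan day; each panel has its own axis. Replicates c and d lie above a and b for H2-Aa, H2-Eb1 and Cd74 in all 4 groups, while H2-Ab1 after LPS lies between 3.34 and 3.75 on all 4 arrays.

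After LPS the replicates of H2-Ab1 stood at 3.75 and 3.35 in c and d, against 3.34 and 3.42 in a and b. The second day differed from the first by 0.17 ± 0.234 there (adjusted p = 0.58), against 1.33 in untreated cells. H2-Aa and H2-Eb1 were higher on the second day after LPS too, by 1.47 ± 0.308 (adjusted p = 0.0033) and 1.51 ± 0.249 (adjusted p = 0.00079), and Cd74 was at 0.51 ± 0.21 (adjusted p = 0.071). The H2-Ab1 ratio after LPS was thus smaller in the replicates with the higher untreated level.

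The LPS change itself differed between the days. Within each day H2-Ab1 changed by 0.88 ± 0.0954 on the second (adjusted p = 0.00022, under 2-fold) and 1.72 ± 0.0501 on the first (adjusted p = 6.2e-07), and the second minus the first was −0.84 ± 0.108 (adjusted p = 0.00029). This interaction, added after the values were seen, had an adjusted p under 0.05 for 33.6% of all genes. It was −0.44 (adjusted p = 0.016) for H2-DMa, −0.39 (adjusted p = 0.022) for H2-Eb1 and −0.33 (adjusted p = 0.048) for H2-Aa. For Cd74 (−0.38, adjusted p = 0.099) and H2-DMb1 (−0.1, adjusted p = 0.3) it did not pass. H2-Eb1 and H2-DMa changed by 0.08 (adjusted p = 0.44) and 0.04 (adjusted p = 0.72) on the second day alone, and by 0.47 (adjusted p = 0.00046) and 0.48 (adjusted p = 0.00061) on the first. The second day alone called 0 members, beside 33.7% of all genes, and the first day alone called H2-Ab1 and Cd74, beside 28.6%. For heme-albumin the interaction had no adjusted p under 0.05 in any member at either dose (lowest 0.42 for H2-DMa at 200 µM).

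The green level of H2-Ab1 was not the same on all arrays either. It was 1.45, 1.52, 2.7 and 2.23 on LPS arrays a to d, against 0.8, 0.81, 2.26 and 1.97 on control arrays of the same letters, although both held untreated RNA. The mean difference was 0.51 ± 0.484 (limma adjusted p = 0.87), and each letter went the same way. From the red channel alone the LPS change was 1.81 ± 0.477 for H2-Ab1 (adjusted p = 0.0035) and 1.07 ± 0.328 for Cd74 (adjusted p = 0.0095), so both were called there. For H2-Aa the red channel alone gave 0.74 ± 0.664 (adjusted p = 0.33) and for H2-Eb1 0.37 ± 0.717 (adjusted p = 0.66). That fit leaves out the slide that arrays of 1 letter share. With the slide as a replicate block, a fit added after the values were seen, the same red changes had standard errors of 0.0979 for H2-Aa (adjusted p = 2.3e-05) and 0.104 for H2-Eb1 (adjusted p = 0.0067). Within letters a to d the red level after LPS minus control was 0.77, 0.79, 0.83 and 0.58 for H2-Aa and 0.6, 0.49, 0.24 and 0.14 for H2-Eb1. The part of the green channel in the LPS ratios was not tested further.

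The wider class II pathway was followed in 6 lists of genes, with 39 genes tested. LPS called 15 of them higher and 4 lower, beside 14% and 16.7% of all genes. Heme-albumin called 0 at either dose. By the adjusted p alone 3 were higher and 7 lower at 200 µM, beside 10.8% and 12% of all genes, and 0 were higher and 2 lower at 50 µM, beside 2.07% and 1.45%. The lists were chosen with results of these data known. Among 13 genes that are known to raise or repress Ciita, 6 were called higher after LPS and 2 lower, and the median change was 0.79. Jak2, a kinase of the interferon gamma receptor, rose by 3.42 ± 0.0668 (limma adjusted p = 4.4e-15). Its log2 ratios were 3.38, 3.29, 3.47 and 3.63 on LPS arrays, against −0.05, 0.08, 0.03 and 0.02 in control. Socs1, which inhibits that kinase, rose by 4.16 ± 0.103 (adjusted p = 4.7e-14), and Ifngr2, the receptor's second chain, by 1 ± 0.0544 (adjusted p = 2.6e-10). The remaining genes called higher, named for completeness, were Il10, Irf1 and Spi1. The 2 called lower, named after their values were seen, were Ifngr1, the ligand-binding chain (−1.97 ± 0.136, adjusted p = 4.1e-09), and Irf4, which was well above background on 2 of 4 LPS arrays. Ifng, the gene of the ligand, was not well above background on any array.

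The factors that sit on the X and Y boxes were called in 0 of 7 cases after LPS, and 1 was higher and 3 lower by the adjusted p alone; 4 had an unadjusted p under 0.05. Of all genes 30.7% were called, and 34.5% were higher and 44.3% lower by the adjusted p. The RFX subunit Rfxap was at −0.71 ± 0.144 (adjusted p = 0.00037), Creb1 at 0.65 ± 0.0447 (adjusted p = 4.2e-09) and the NF-Y subunit Nfyc at −0.65 ± 0.0889 (adjusted p = 7.8e-06). Of the other class II chains, 2 of 4 on the array passed the filter and 0 were called: H2-Oa was at 0.56 ± 0.133 (adjusted p = 0.0013) and H2-Ob at 0.12 ± 0.207 (adjusted p = 0.6) after LPS. At 200 µM heme-albumin H2-Oa was at 0.57 ± 0.133 (limma adjusted p = 0.0063). It was 1 of 2 with an adjusted p under 0.05, beside 22.8% of all genes.

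Among 8 genes that cut the invariant chain and antigen in the endosome, LPS called 2 higher and 1 lower, beside 14% and 16.7% of all genes. Sppl2a, the membrane protease that removes the last stub of the invariant chain, rose by 1.84 ± 0.0811 (adjusted p = 2.4e-11). Ctsz, a cathepsin, rose by 1.03 ± 0.075 (adjusted p = 1.6e-08, 15 of 16 arrays used), and Ifi30, the thiol reductase GILT, fell by 1.02 on the log2 scale (SE 0.0683, adjusted p = 2.9e-09). Ctss, the protease best known for trimming the invariant chain, was at −0.06 ± 0.0848 after LPS and −0.54 ± 0.0848 at 200 µM (adjusted p = 0.0011, 12 of 16 arrays used because outlier spots were left out). At 200 µM 4 of the 8 had an adjusted p under 0.05, all lower and none called, where 12% of all genes were lower. Lgmn, the endosomal asparagine protease legumain, was at −0.85 ± 0.0805 at that dose (limma adjusted p = 2.8e-06). Ctss and Lgmn were named after their values were seen.

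Of 3 genes of turnover at the surface, 2 were called higher after LPS, beside 14% of all genes. Marchf8, a ubiquitin ligase of class II, fell by 0.53 on the log2 scale, under 2-fold (SE 0.0913, adjusted p = 8.3e-05). Marchf1, the related ligase that removes class II and CD86 from the surface, rose by 2.34 ± 0.124 after LPS (adjusted p = 2e-10). Cd83, which opposes MARCH1, rose by 3.18 ± 0.191 (adjusted p = 8.5e-10), with log2 ratios of 2.92, 2.84, 3.61 and 3.73, against 0.11, 0.05, 0.15 and 0.07 in control. At 200 µM heme-albumin Cd83 had −0.83, −0.95, −1.32 and −0.49, below the control on every array, a change of −0.99 ± 0.191 (adjusted p = 0.0016) that stopped just short of 2-fold. Of 6 costimulatory genes, LPS called 5 higher and 1 lower, beside 14% and 16.7% of all genes. The inhibitory ligand gene Cd274 rose by 3.34 ± 0.108, Cd40 by 4.65 ± 0.207 and Cd86 by 2.67 ± 0.129 (limma adjusted p = 7.7e-13, 2.7e-11 and 6.8e-11). Cd80, named after its value was seen, was lower (−1.39 ± 0.133, limma adjusted p = 1.8e-07). Pdcd1lg2 was among the higher calls but its probe was dim, not well above background, on all 4 control arrays.

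**Figure D4:**
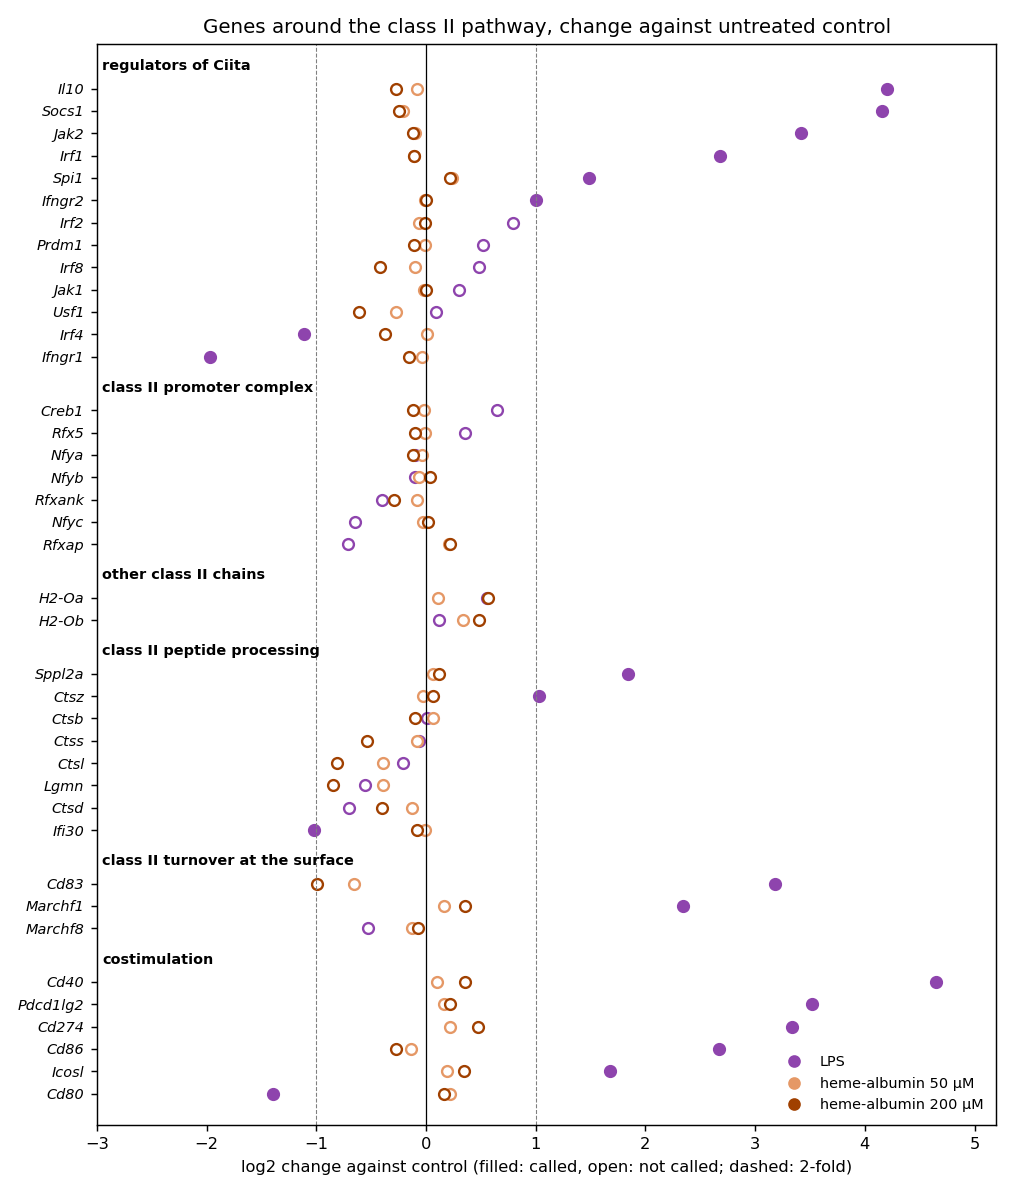
Log2 change against control of 39 genes in 6 lists around the class II pathway, for LPS, heme-albumin 50 µM and heme-albumin 200 µM; filled points are called (adjusted p under 0.05 and at least 2-fold), open points are not, and dashed lines mark 2-fold. LPS called 15 genes higher and 4 lower, and heme-albumin called 0.

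The cells carried the markers of macrophages, with 7 of 7 measured ones well above background on every array. The summed level of the 6 with a value on all arrays (Csf1r was an outlier spot on some) ran from 145 to 202 after LPS, against 82.6 to 117 in control. The summed level of the dendritic cell markers ran from 12.2 to 20.3 after LPS, against 5.07 to 18.4 in control. Ccr7 was called higher, but its probe was well above background on 4 of 4 LPS arrays and 1 of 4 control arrays. It passed the filter on dim probes only through the LPS group. Of the 8 dendritic cell markers 4 to 6 were well above background on an LPS array, against 2 to 5 on a control array. Cd209a and Xcr1 were so on no array. The summed level of the T and NK cell markers ran from 0.63 to 1.42 after LPS, against 0.556 to 1.13 in control. Cd3g, Cd8a and Klrb1c were well above background on no array. B cells also express class II, and 6 of their markers summed to 0.197 to 0.556 after LPS, against 0.709 to 1.15 in control. Of those 6, 2 to 3 were well above background on an LPS array, against 2 on each control array. Ms4a1 and Cd79a were not well above background on any array. At 200 µM heme-albumin 2 of 7 macrophage markers were called lower and 0 higher, beside 0.98% and 2.05% of all genes. They were Fcgr1, the high-affinity IgG receptor (−1.58), and Mertk. Mertk had log2 ratios of −0.86, −0.96, −1.51 and −0.98, against −0.03, −0.07, −0.02 and −0.03 in control. At that dose the sums were 78.2 to 112 for macrophage, 5.45 to 17.8 for dendritic cell, 0.743 to 1.12 for B cell and 0.459 to 1.05 for T and NK cell markers. Their part in the LPS changes was not tested.

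Across the 16 arrays the log2 ratio of H2-Ab1 correlated with that of H2-Aa at r = 0.972, with Cd74 at 0.941, with H2-Eb1 at 0.91 and with H2-DMa at 0.863, but with H2-DMb1 at −0.577. These are descriptions over arrays that share groups, slides and the 4 LPS arrays as the extreme points. The mean profile of H2-Aa, H2-Ab1 and H2-Eb1 was most like those of Camp (r = 0.989), Slc16a3 (0.984), Csf2 (0.982), Ccdc93 (0.981), Pgm1 (0.98) and Bnip3 (0.976) among 12354 other genes measured on all arrays. It was least like Mamdc2 (−0.984), Colec12 (−0.982) and Klf4 (−0.98). Camp changed by 2.19 after LPS and Csf2 by 4.07, while at 200 µM heme-albumin they stood at −0.21 and 0.04. With group means removed, the genes nearest to the profile were Nos3 (0.966), Dnaja3 (0.961), Zik1 (0.961), Dph2 (0.961), Ado (0.96) and Fastkd3 (0.96). The sign for H2-DMb1 depended on this step. Its r with the profile was −0.537 over the arrays and 0.862 with group means removed. With group means removed Cd74 was at 0.748 and H2-DMa at 0.718.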

How the data were processed

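Stem cell derived macrophages were measured on 16 arrays. The authors deposited each array's scanner output, in which LogRatio is a log10 ratio of Cy5 to Cy3 after background subtraction and a linear plus lowess dye correction, made with Feature Extraction 10.7.3.1 according to the headers. Median and processed signals are deposited as spot intensity per channel, per the file headers. Per the labels, the authors took the log10 ratios into JMP Genomics for an analysis of variance and a filter at 2-fold. The deposited value table equals the LogRatio columns.

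Here spots of each probe were averaged without control and outlier spots, and probes were named by accession from RefSeq genes of GRCm38.p6 (27234 of 39429 probes). The ratios, as log2, went into limma 3.58.1 (R 4.3.3, lmFit and eBayes) with all 16 arrays and no block. The filter kept 21458 probes that were well above background in the red channel on 4 of 4 arrays in 1 or more groups; the brightest probe stood for each of 12759 genes. P-values were adjusted by Benjamini-Hochberg within each of 6 comparisons. Files were read with the R package data.table (version 1.17.8), plots were drawn with matplotlib 3.10.9, and the fit was tested on simulated data. Alternatives changed the background correction, centring, channel, filter, probe rule, test, block, scan day and arrays used.

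The files hold no mean signals, so normexp (offset 50) and the fit without background subtraction used median signals. The number of arrays limits the precision, no spot was saturated, and Feature Extraction marked 8 of the 16 arrays for evaluation. Arrays of 1 letter share a slide and deviated together in 5 of 6 comparisons (every correlation of deviations above 0.1). Between LPS and control those correlations were 0.0974 to 0.114, so the letter counts there as a shared slide only. The members, the gene lists and the rule for naming genes (all members, up to 3 genes a list by adjusted p or size after LPS, and the genes most like the mean profile) were chosen with earlier results of these data known. Of the gene lists, 2 genes are not reported here and were left out of every count, sum and plot of those lists.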

Additional observations from a re-analysis of the deposited data

Results flagged for a closer look

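In 1 of 32 groups of 4 log2 ratios (8 probes in 4 groups) the highest or lowest array stood apart by the Dixon criterion. H2-Ab1 on its brightest probe had 0.42 in heme-albumin 200 µM replicate c, where the other arrays of the group had 0.16 to 0.2. Chance marks about 1 group in 20, and 1 of 32 is no more than that. Replicate c is also the array with the highest red level of this gene in that group (2.78).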

How the results depend on the processing

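Under 33 alternatives 842 values of members kept their direction and their side of the calling threshold, 13 with an adjusted p of at least 0.05 in both fits changed sign, 5 became stronger, 3 weaker and 1 reversed. Leaving out any 1 array changed no count of called members. The number of called members after LPS was 1, and it became 2 from the red channel alone, 2 from that channel with the slide as replicate block (added after seeing the data), 2 on the first scan day alone, 0 on the second scan day alone and 6 with no filter on size. For heme-albumin at 200 µM against LPS, and likewise at 50 µM against LPS, it was 1 and became 2, 0 and 6 on the first day, on the second day and with no filter on size. The cause of the difference between days was not tested; the filter on size adds the members under 2-fold by construction. H2-DMb1 at 200 µM against LPS was 0.12 and turned to −0.0036 (adjusted p = 0.96) with normexp background correction, cause not tested. With the slide as replicate block in the ratios H2-Ab1 after LPS was 1.3 (adjusted p = 2.7e-05) and Cd74 at 200 µM 0.26 (adjusted p = 0.075), and the block changed no call. Cd74 at 200 µM ran from 0.21 to 0.43 (adjusted p 0.021 to 0.74), under 0.05 in 3 of 24 alternatives. Without the 8 arrays marked for evaluation, chosen after seeing the data, H2-Ab1 after LPS was 1.32 (adjusted p = 0.016) with 1 control array left, assumed to vary like the other groups. Dim signal limits Ciita, which stayed untested.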
